A study of Mus musculus with 18 samples.

Results

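The baseline transcriptome of the mouse ileum was described in 6 RNA-seq libraries of the control genotype, of 18 libraries in the series. The members were chosen by the genotype label alone, with 1 library per mouse, and all 6 were used. The study asked what excess *Ppara*, a nuclear receptor for fatty acids, does in the intestinal epithelium, and these control mice were its reference group. Control mice carried 1 or 2 copies of the CAG-*Ppara*,-*EGFP* transgene at the *Col1a1* locus but lacked the tamoxifen-activated *Villin-CreERT2* that switches it on in epithelial cells. They were on a C57BL/6J background, ate chow, were 8 to 13 weeks old and, like every mouse in the series, had 3 daily injections of tamoxifen (100 mg/kg) and were collected 2 weeks after the last one. Controls 1, 4 and 6 were labelled female, and Controls 2, 3 and 5 were labelled male. Which controls had 1 and which had 2 copies of the silent transgene was not used here. Each library came from 1 piece of the most distal part of the small intestine, taken through the full thickness of the wall.

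The ileum absorbs what the upper intestine leaves, takes back bile acids, and keeps a dense bacterial community away from its surface. Its lining is a single sheet of cells made by stem cells in the crypts, mostly absorptive enterocytes, with goblet cells that make mucus, Paneth cells that fill the crypt base with antimicrobial peptides, and rare hormone and tuft cells. Under it lie connective tissue with plasma cells, vessels and macrophages, then 2 coats of smooth muscle with the enteric nerves, and outermost the serosa with its mesothelium, next to mesenteric fat. Lymphoid follicles (Peyer's patches and smaller ones) are scattered along the ileum, so a given piece of wall may or may not hold one.

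The libraries held 38528522 to 50376371 counts, so that 3 counts correspond to 0.0596 to 0.0779 CPM, the counts scaled to a common library total. Protein-coding genes took 96.7 to 97.5% of the counts, mitochondrially encoded genes 2.41 to 3.05%, ribosomal protein genes 2.14 to 2.68% and immunoglobulin genes 0.522 to 0.814%. Between 12433 and 13496 genes were above 3 CPM. No pair of libraries was a duplicate, since the chi-square per degree of freedom between pairs was 34.9 to 102.9 and is about 1 for repeat sequencing of 1 library. Control 6 stood apart from the others, and values are therefore also given without it where that moves them. *Ppara* was at 25.8 to 47.4 CPM (median 39.4), and these counts do not separate the transgene from the gene on chromosome 15.

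Counts were spread over many genes. The 25 genes of highest mean CPM together took 10.7 to 13.0% of the counts of a library, and between 736 genes (Control 6) and 969 genes (Control 2) were needed to reach 50% of the counts. *Anpep*, the brush border aminopeptidase N, had the highest mean, 10374 ± 2233 CPM (SD, n = 6), and ranged from 8429 in Control 1 to 13970 CPM in Control 6. *mt-Co1*, a subunit of cytochrome c oxidase encoded in the mitochondrial genome, followed with 9299 to 11604 CPM. *Fcgbp*, a goblet cell protein of the mucus gel, had 6175 to 12130 CPM, the widest range of the first 5 genes relative to its lowest value. *Lyz1*, the Paneth cell lysozyme, had 5571 to 8266 CPM. *Naaladl1*, a brush border peptidase, was at 5059 to 5341 CPM, and its SD of log2 CPM, 0.03, placed it among the 10 steadiest of 2159 genes with a mean of at least 100 CPM. *CT010467.1*, annotated as ribosomal RNA on chromosome 17, was also among the 25 at 3395 to 5738 CPM, although the libraries were made from poly-A RNA.

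**Figure D1:**
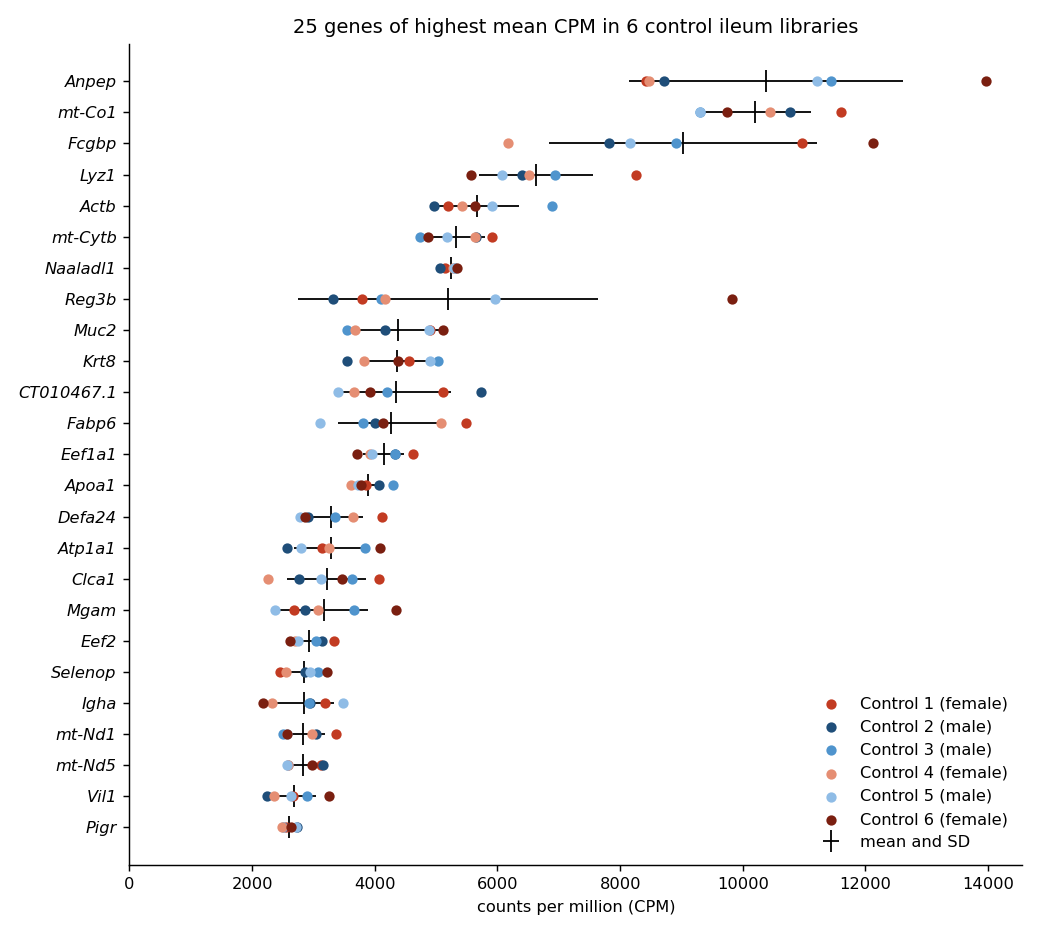
CPM (linear axis) of the 25 genes of highest mean CPM in each of the 6 control libraries, with the mean and the SD over libraries as a tick and a line. *Reg3b* in Control 6 lies far to the right of its other 5 points, at 9826 CPM against at most 5952, whereas the points of *Naaladl1* and *Pigr* nearly coincide.

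Levels of different genes can be compared only per length, as FPKM, the CPM per kilobase of gene length. On that scale, short secreted and transport proteins led. *Fabp6*, the ileal bile acid binding protein, was the protein-coding gene of highest mean, 8913 ± 1819 FPKM (SD, n = 6), with 6488 FPKM in Control 5 and 11459 FPKM in Control 1. The alpha-defensin *Defa24*, a Paneth cell peptide, came next with 6651 to 9829 FPKM, and the ranges of *Fabp6* and *Defa24* overlapped. The 25 protein-coding genes of highest FPKM held 5 alpha-defensins, 6 mitochondrial genes, the Paneth cell products *Lyz1* and *Itln1*, the goblet cell products *Tff3* and *Zg16*, the antimicrobial lectin *Reg3b* and the keratins *Krt8* and *Krt19*. *Apoa1*, the main apolipoprotein of high-density lipoprotein, was at 2921 to 3472 FPKM, close to the median of *Defa38* (3094 FPKM). Of the 25 genes of highest CPM, 15 were also among the 25 genes of highest FPKM over all biotypes. *Mgam*, a long brush border enzyme of starch digestion, shows what length does: its mean of 3164 CPM corresponded to 262 FPKM.

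The letters of the TATA box, a sequence a short way upstream that positions the start of transcription, were searched near the start of these genes. In the RefSeq promoter windows (GRCm38.p6, 250 bases before to 50 after each start site), 13 of the 25 genes of highest FPKM had an entry, and 7 of these 13 held the letters TATAAA on either strand. Counted by window, the 13 genes held them in 7 of 14, beside 13.6% of all 32851 windows searched. The stretches around the match are shown for 4 alpha-defensins, *Fabp6* and the lectin pair *Reg3b* and *Reg3g*, since these secreted and transport proteins led the FPKM ranking and *Reg3b* and *Reg3g* are described below as a pair that was high in the same library. *Krt8*, the seventh gene with the letters, held them at the start site itself, and *Reg3g* was not among the 25. Capitals mark TATAAA, or TTTATA where it lies on the other strand, and each line reads 5′ to 3′ along the gene.
Defa21: ttctctgcccTATAAAtataggctgg
Defa22: ttctctgcccTATAAAtataggctgg
Defa30: ttcactgtccTATAAAggcaggctgg
Defa38: ctctctgcccTATAAAtgcaggctgc
Fabp6: gttgggagtgTTTATAagctgggact
Reg3b: caaattctgtTATAAAaacacagtca
Reg3g: caagtcctacTATAAAaacagtcatc
The stretches lie at chr8:21025504-21025529 (plus strand) for *Defa21*, chr8:21162236-21162261 (plus) for *Defa22*, chr8:21134579-21134604 (plus) for *Defa30*, chr8:21096109-21096134 (minus) for *Defa38*, chr11:43601576-43601601 (minus) for *Fabp6*, chr6:78370846-78370871 (plus) for *Reg3b* and chr6:78468886-78468911 (minus) for *Reg3g*. The match began 31 bases before the start site in *Defa21* and *Defa22*, 29 in *Fabp6* and *Reg3b*, 27 in *Reg3g*, and farther away in *Defa30* (61) and *Defa38* (74). *Reg3g* held a second match on the other strand, 161 bases before the start. *Defa21* and *Defa22* were identical over the stretch shown. The defensin genes are near copies of each other, and a read that fits 2 of them equally is in neither count, so that their single levels are uncertain.

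The share of counts was then summed over lists of marker genes. The sums depend on which genes a list holds, so they compare libraries and not cell types. The epithelial lists together (87 genes) took 10.2% of the counts as a median, from 8.88% in Control 2 to 11.8% in Control 6. The lists of blood cells and lymphoid tissue (66 genes) took 0.636% (0.415 to 0.707%, and 0.580 to 0.707% without Control 6). The lists of muscle, nerve and Cajal cells (29 genes) took 0.412%, from 0.0769% in Control 6 to 0.638% in Control 5, and 0.278 to 0.638% without Control 6. The lists of fibroblasts, vessels and serosa (37 genes) took 0.339% (0.252 to 0.670%, and 0.275 to 0.670% without Control 6). In bulk tissue, fewer cells of a type and less RNA per cell cannot be told apart, and this holds for each list that follows.

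**Figure D2:**
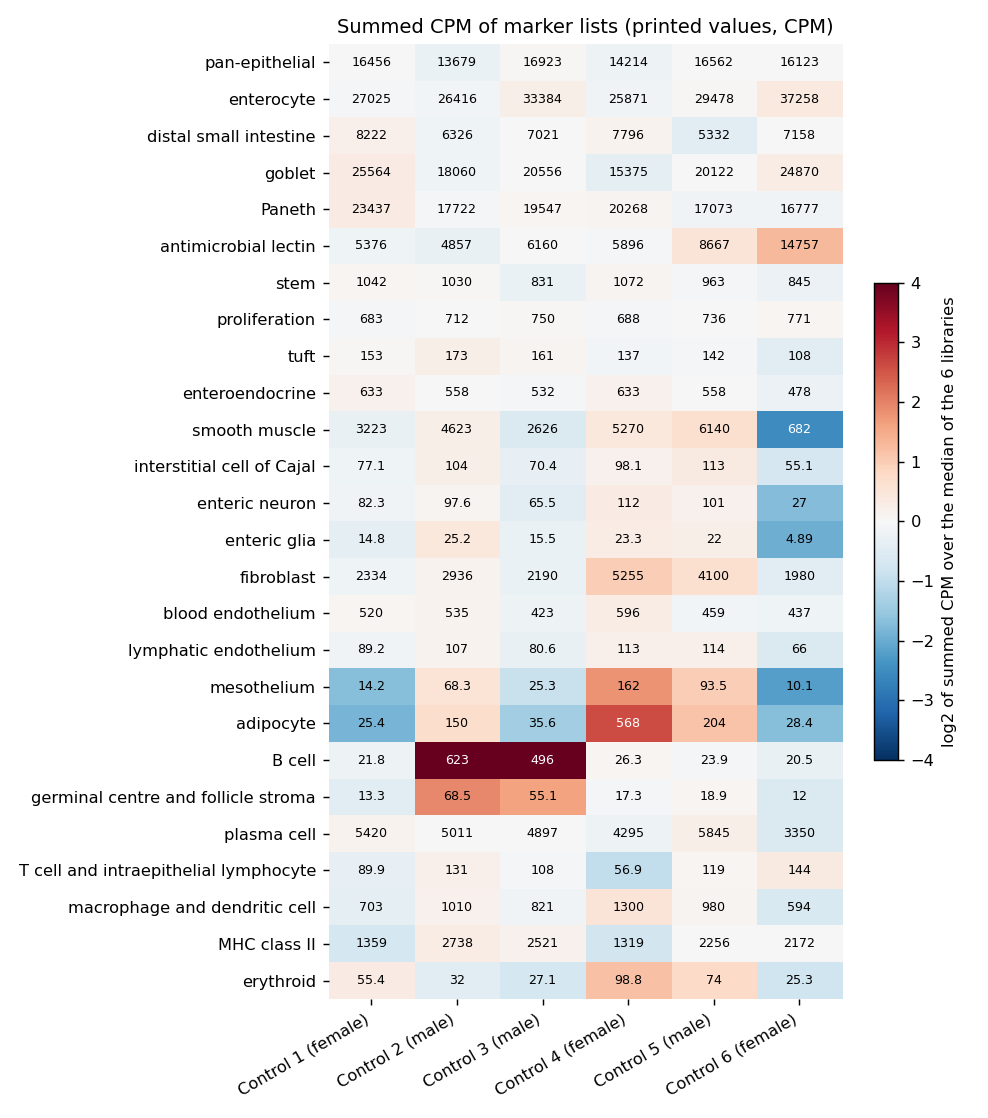
Summed CPM of 26 marker lists (rows) in the 6 control libraries (columns), printed in each cell, with colour for log2 of the sum over the median of the 6 libraries. The epithelial rows at the top are pale apart from the lectin row in Control 6, colours end at 4 on the log2 scale, Control 6 is blue in the smooth muscle, neuron and glia rows, Controls 2 and 3 are dark red in the B cell row, and Control 4 is the reddest in the mesothelium and adipocyte rows.

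The labelled tissue was checked against its regional markers. The distal small intestine list summed to 5332 to 8222 CPM and the proximal list to 93.0 to 137 CPM. *Slc10a2*, the bile acid transporter of the ileal brush border, was at 387 to 654 CPM, and *Slc51a* and *Slc51b*, the exporter subunits at the basal membrane, were at 885 to 1261 and 124 to 157 CPM. Of the proximal markers, *Gata4* was at 0.591 to 1.87 CPM, *Pdx1* at no more than 0.0976 CPM and *Lct*, lactase, at 0.456 to 2.07 CPM. Of the colon markers, *Aqp8* and *Hoxb13* had 0 counts in all 6 libraries, which allows up to 0.0779 CPM in the shallowest, and *Car1* and *Hoxd13* were at 0.0844 CPM or less. *Muc4*, a membrane mucin, was present at 31.3 to 55.3 CPM. By these markers the label of ileum held, with duodenal and colonic factors near or at 0. *Fgf15*, the hormone that the ileum secretes in response to bile acids, differed between libraries more than the other distal markers, from 13.3 CPM in Control 5 to 89.2 CPM in Control 4.

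Among epithelial lists, levels were close between libraries. All 14 enterocyte, 10 goblet and 10 Paneth cell markers passed the filter of more than 3 CPM in at least 3 of the 6 libraries, as 13233 genes did, and none of these markers had an SD of log2 CPM above 1. The median SD of log2 CPM was 0.24 for both enterocyte and goblet cell markers and 0.19 for Paneth cell markers, beside 0.17 over all 13233 genes. Enterocyte markers summed to 25871 to 37258 CPM, and 12 of 14 were highest in Control 6. *Sis*, sucrase-isomaltase, was at 2673 CPM in Control 6 and 2615 CPM in Control 3 but at 1187 to 1670 CPM in the other 4. *Apoa4*, an apolipoprotein of chylomicrons, varied most in this list, from 12.4 to 56.7 CPM, but 69.8% of its exonic bases are shared with another annotated gene, and reads that fit both are in neither count. Goblet cell markers summed to 15375 CPM in Control 4 and 25564 CPM in Control 1. *Muc2*, the gel-forming mucin, was at 3545 to 5115 CPM and *Clca1* at 2256 to 4064 CPM. Paneth cell markers were highest in Control 1, for 9 of 10 members. The exception, *Mptx2*, was highest in Control 6 (348 CPM) and at 154 to 220 CPM elsewhere.

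Proliferation genes were among the steadiest. The 14 proliferation genes summed to 683 to 771 CPM, with a median SD of 0.11 for the members. *Mki67* was at 138 to 167 CPM and *Top2a*, a topoisomerase of dividing cells, at 115 to 149 CPM. Stem cell markers summed to 831 to 1072 CPM, and the median SD of their members was 0.18, beside 0.17 over all 13233 genes. *Lgr5*, the receptor that marks crypt base stem cells, was at 28.2 to 34.6 CPM, and *Olfm4*, a secreted crypt glycoprotein, was at 313 to 448 CPM. Of 15 enteroendocrine markers, 13 passed the filter, and the list summed to 478 to 633 CPM. *Chgb*, a granin of hormone granules, had the highest CPM of the list, at 122 to 149 CPM. Per length it did not lead: its mean was 50.5 FPKM, below *Pyy* (74.6), *Nts* (73.3), *Sst* (71.6) and *Sct* (71.5 FPKM). The neurotensin gene *Nts* was at 77.5 to 113 CPM and the proglucagon gene *Gcg* at 42.6 to 64.5 CPM. *Gip*, the gene of the upper intestinal incretin, was at 1.20 CPM in Control 5 and 4.59 to 6.97 CPM in the other 5, so its SD of log2 CPM (0.92) was far above that of *Chgb* (0.12). Tuft cell markers summed to 108 to 173 CPM and were lowest in Control 6, as were 7 of the 8 members that passed the filter.

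The antimicrobial lectins were the exception in the epithelium. REG3B and REG3G are secreted C-type lectins that bind bacteria. *Reg3b* was at 3785, 3322, 4096, 4165, 5952 and 9826 CPM in Controls 1 to 6, and *Reg3g* at 1509, 1465, 1995, 1654, 2643 and 4867 CPM. Both were highest in Control 6 and next in Control 5, with the other 4 libraries close together. *Reg3a*, the neighbouring gene on chromosome 6, had its lowest value in Control 6 (63.2 CPM) and ranged only to 81.8 CPM. The list spanned 3.04-fold from the lowest to the highest library and 1.78-fold without Control 6.

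Smooth muscle genes set Control 6 apart. The 10 smooth muscle genes summed to 3223, 4623, 2626, 5270.5, 6140 and 682 CPM in Controls 1 to 6, so that Control 6 lay far below the others and Control 5 was highest. All 10 members were lowest in Control 6 and highest in Control 5. *Des*, the intermediate filament of muscle, was at 36.2 CPM in Control 6 and 351 to 856 CPM in the other 5. *Actg2*, the enteric smooth muscle actin, was at 22.3 CPM against 187 to 539 CPM, and *Myh11*, the smooth muscle myosin heavy chain, at 198 CPM against 845 to 2093 CPM. The SD of log2 CPM was above 1 for 7 of the 10, beside 2.92% of all genes passing the filter. From lowest to highest the list spanned 9.01-fold, and 2.34-fold without Control 6. *Tagln*, usually an abundant smooth muscle gene, was at only 1.49 to 6.63 CPM, and 67.9% of its exonic bases are shared with another annotated gene. None of the 7 smooth muscle genes with a RefSeq promoter window held a CArG box, the binding motif of serum response factor, in that window, and 1.63% of all windows did.

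Genes of the enteric nervous system, which lies between and inside the muscle coats, were also lowest in Control 6. The neuron list summed to 27.0 CPM there and to 65.5 to 112 CPM elsewhere, and all 8 members that passed the filter had their lowest value in Control 6. *Nos1*, the nitric oxide synthase of inhibitory motor neurons, was at 0.353 CPM against 2.80 to 12.5 CPM, and *Prph*, a neuronal intermediate filament, at 0.882 CPM against 7.34 to 15.5 CPM. *Ret*, a receptor of the neural crest lineage, was lowest in Control 6 as well but by far less, at 12.2 CPM against 14.6 to 22.3 CPM. The glia list summed to 4.89 CPM in Control 6 and to 14.8 to 25.2 CPM elsewhere. Without Control 6 the neuron list spanned 1.71-fold and the glia list 1.70-fold, in place of 4.15-fold and 5.15-fold. The Cajal cell genes *Kit*, *Ano1* and *Etv1* were lowest in Control 6 too, and their list spanned 2.04-fold.

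Markers of the outer surface and of fat ran in another order. The 5 mesothelium genes summed to 162 CPM in Control 4, 93.5 in Control 5, 68.3 in Control 2, 25.3 in Control 3, 14.2 in Control 1 and 10.1 in Control 6. *Upk1b*, a uroplakin, was unlike the other 4 members, at 9.71 to 22.1 CPM in all 6 libraries, and made up 9.90 of the 10.1 CPM in Control 6. *Wt1*, a transcription factor of mesothelium, was at 22.9, 11.5 and 8.28 CPM in Controls 4, 5 and 2, at 1.83 and 0.174 CPM in Controls 3 and 1 and at 0 counts in Control 6. The 6 adipocyte genes followed nearly the same order, with 568 CPM in Control 4, 204 in Control 5, 150 in Control 2 and 25.4 to 35.6 CPM in the other 3. *Adipoq*, the fat hormone adiponectin, was at 56.6, 17.5 and 11.4 CPM in Controls 4, 5 and 2 and at 0 counts in Controls 1, 3 and 6. *Cidec*, a lipid droplet protein, behaved unlike the rest of the list: it had 25.2 to 43.7 CPM in 5 libraries, those without *Adipoq* included, and 81.2 CPM in Control 4. The fibroblast list was highest in Control 4 as well (5255 CPM, with 4100 in Control 5 and 1980 to 2936 in the other 4), for all 10 of its members. *Col1a1*, in whose locus the transgene sits, was at 1004 CPM in Control 4 and 316 to 693 CPM elsewhere. Endothelial genes differed less, with sums of 423 to 596 CPM for blood endothelium. Lymphatic endothelium genes summed to 66.0 CPM in Control 6 and 114 CPM in Control 5.

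**Figure D3:**
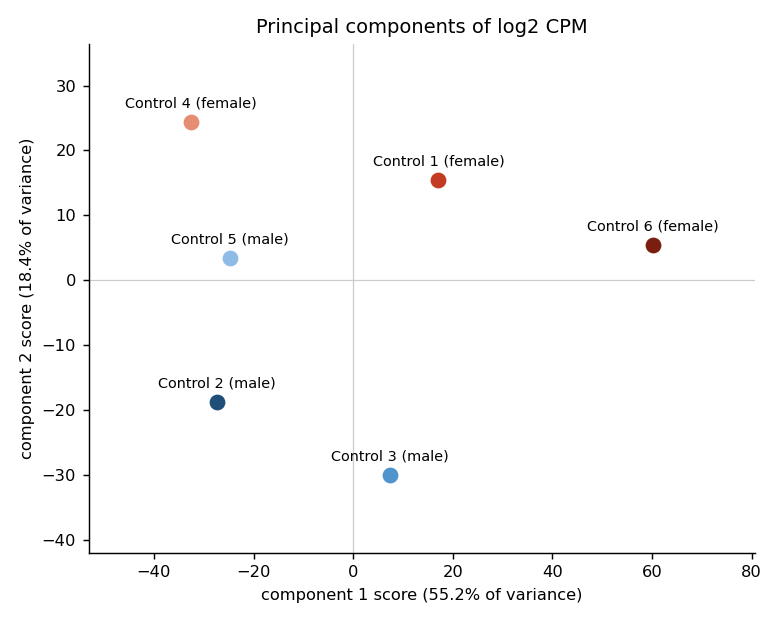
Scores of the 6 control libraries on the first 2 principal components of log2 CPM (prior count 2, genes centred and not scaled), with their share of the variance on the axes. Control 6 lies alone at the right, Controls 2, 4 and 5 at the left, and Controls 2 and 3 are lowest on component 2.

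Principal components gave the same division. Component 1 held 55.2% of the variance, with scores of 17.1, -27.4, 7.45, -32.6, -24.8 and 60.2 in Controls 1 to 6. Immunoglobulin genes entered the components but were left out when genes were ranked by their loadings. Among the other genes, the negative end of component 1, where Controls 2, 4 and 5 lay, was led by genes of fat and mesothelium. They included the adipocyte genes *Cfd*, *Car3*, *Adipoq* and *Retn* and the mesothelial genes *Msln*, *Upk3b*, *Wt1* and *Muc16*. Component 2 held 18.4%, with Controls 2 (-18.8) and 3 (-30.0) lowest and Control 4 highest (24.4). Without immunoglobulin genes, its negative end was led by the 4 Y-linked genes named below. Genes of B cells such as *Cd79a*, *Cd79b* and *Cd22* came next. Component 1 held 43.5% without Control 6.

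Lymphoid tissue divided the libraries in another way. The 12 B cell genes summed to 21.8, 623, 496, 26.3, 23.9 and 20.5 CPM in Controls 1 to 6, so that Controls 2 and 3 were high and the other 4 near each other. Each of the 12 was highest in Control 2 and next in Control 3. *Cr2*, the complement receptor of B cells and follicular dendritic cells, was at 42.7 and 34.8 CPM in Controls 2 and 3 and at 0.338 to 0.571 CPM elsewhere. Only 3 of the 12 passed the filter, because the others were above 3 CPM in Controls 2 and 3 alone, and the counts of variable genes below therefore leave most of this list out. Several genes of follicles were highest in the same libraries, but *S1pr2*, a receptor of germinal centre B cells, was not, at 10.7 CPM in Control 2, 7.34 in Control 3 and 8.84 in Control 5. *Cxcl13*, the chemokine that draws B cells into follicles, was at 22.8 and 20.1 CPM in Controls 2 and 3 and 2.21 to 2.60 CPM elsewhere. *Gp2*, a receptor of the M cells that cover follicles, was at 4.63 and 6.91 CPM in Controls 2 and 3 and at no more than 0.295 CPM in the other 4. *Tnfrsf11a*, another gene of the M cell list, was at 67.7 to 87.2 CPM in all 6.

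Plasma cell genes did not follow the B cell genes. *Igha*, the constant region of IgA, was at 3190, 2938, 2928, 2325, 3479 and 2178 CPM in Controls 1 to 6, and *Jchain*, which joins IgA into dimers, at 264 to 442 CPM. Both were lowest in Control 6. *Pigr*, the epithelial receptor that carries IgA into the lumen, was at 2486 to 2737 CPM. The IgG and IgD constant regions followed the B cell genes: *Ighd* was at 99.6 and 77.8 CPM in Controls 2 and 3 and 0.958 to 1.64 CPM elsewhere, and *Ighg2b* at 144 and 111 CPM against 4.07 to 8.57 CPM. *Ighm*, the IgM constant region, had another pattern, with 345 and 280 CPM in Controls 2 and 3 but 363 CPM in Control 4, 136 in Control 5 and 14.8 to 23.3 CPM in Controls 6 and 1.

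Other leukocytes differed less. T cell and intraepithelial lymphocyte genes summed to 56.9 CPM in Control 4 and 144 CPM in Control 6, and the members peaked in different libraries. *Cd4*, the coreceptor of helper T cells, was at 28.3 and 23.5 CPM in Controls 2 and 3 and 14.3 to 15.5 CPM elsewhere, and *Cd3e* and *Cd8a* were also highest in Control 2. The granzymes *Gzma* and *Gzmb*, killing enzymes of intraepithelial lymphocytes, were at 32.0 and 21.1 CPM in Control 6 and at 5.97 and 3.27 CPM in Control 4. Macrophage and dendritic cell genes summed to 594 to 1300 CPM, lowest in Control 6 and highest in Control 4, the library that also led the adipocyte and mesothelium lists. Not every member followed the sum. *Itgax* was lowest in Control 4 (29.9 CPM) and highest in Control 2 (45.8 CPM). *Flt3* was also highest in Control 2 (8.02 CPM), with 2.15 CPM in Control 4 and 2.02 CPM in Control 6. *Cd163*, a marker of resident macrophages, was at 15.5 and 15.8 CPM in Controls 4 and 5, 11.2 CPM in Control 2 and 2.27 to 4.25 CPM in the other 3. *Cd74*, the MHC class II invariant chain, was at 638, 1314, 1187, 630, 1155 and 1093 CPM in Controls 1 to 6. Controls 1 and 4 were thus low, and Controls 2 and 3, high in B cell transcripts, were only slightly above Controls 5 and 6. Mast cell and granulocyte lists summed to at most 5.80 and 12.0 CPM, and none of their members passed the filter. Erythroid genes summed to 25.3 to 98.8 CPM.

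Traces of other organs were small. Of 8 pancreatic acinar genes, *Prss2* and *Amy2a5* had 0 counts in all libraries, 5 more were at 0.390 CPM or less, and *Clps*, the colipase gene, was alone at 81.9 to 137 CPM. Of the liver genes, *Alb* was at 0.0794 to 2.00 CPM in 5 libraries and 12.9 CPM in Control 5, and *Cyp2e1*, which fat also expresses, at 60.9 CPM in Control 4. Of the skeletal and cardiac muscle genes, *Acta1* was at 45.5 CPM in Control 3 and 196 CPM in Control 6 with *Myh4* at 0 counts, and *Ckm*, the muscle creatine kinase, was at 5.10 to 8.02 CPM in 5 libraries and 0.0504 CPM in Control 6. *Acta1* and *Ckm* thus went in opposite directions in Control 6.

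Variation was next described gene by gene, as the SD of log2 CPM (prior count 2) over the 6 libraries. The median SD was 0.17, and 69.5% of the 13233 genes had an SD below 0.25. An SD above 1 was found for 387 genes, or 2.92%, and for 212 genes without Control 6. The genes just inside and outside this limit had SDs of 1.002 and 0.997. Of the 387, 85 were immunoglobulin genes, which is 77.3% of the 110 immunoglobulin genes that passed the filter. Of the other 302, Controls 2, 4 and 5 were the 3 highest libraries for 223 genes, Controls 2 and 3 the 2 highest for 57, and Control 6 the lowest for 238. Control 6 was the highest for 6 of these genes and Control 1 for 0.

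**Figure D4:**
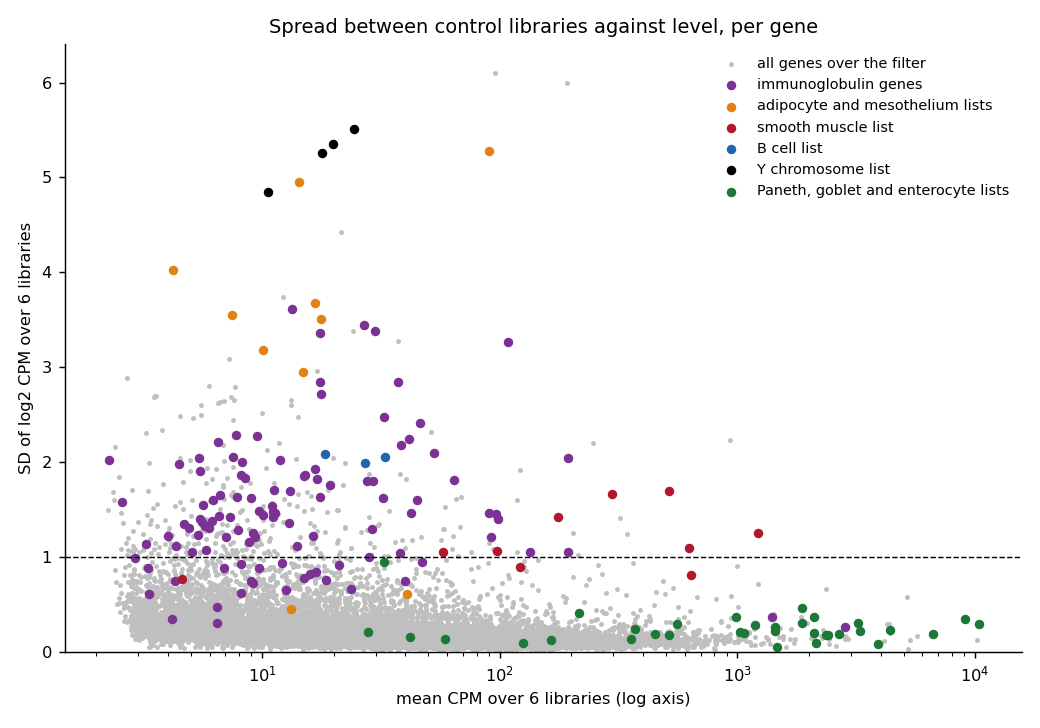
SD of log2 CPM over the 6 control libraries against mean CPM (log axis) for the 13233 genes passing the filter, with gene groups in colour and a dashed line at an SD of 1. Markers of enterocytes, goblet and Paneth cells lie below the line over the whole range of levels, while most immunoglobulin, adipocyte, mesothelium and smooth muscle genes lie above it.

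The 30 genes of highest SD fell into few groups. *Cfd*, the complement factor D that fat secretes, had the highest SD (6.10), with 412, 91.7 and 66.3 CPM in Controls 4, 5 and 2 and at most 0.0434 CPM in the other 3. *Car3*, a carbonic anhydrase of fat and muscle, was at 344, 116 and 81.1 CPM in the same libraries and at most 0.390 CPM in the others. With *Adipoq*, *Retn*, *Plin1*, *Plin4*, *Hp* and *Cyp2e1*, these made 8 genes that fat expresses strongly. The mesothelial genes among the 30 were *Muc16*, *Upk3b*, *Wt1*, *Lrrn4*, *Msln* and *Bnc1*. *Rspo1*, a secreted enhancer of Wnt signalling, ran in the same order, at 13.1, 10.7 and 6.63 CPM in Controls 4, 5 and 2 and at 0.0252 CPM in Control 6. *Xist* (SD 6.00) and the 4 Y-linked genes divided the libraries by their labelled sex. Immunoglobulin V segments made up another 7. The 30th gene, *Chil1*, had an SD of 2.79 and the next gene 2.72.

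Some abundant genes were also among the 387. Beside smooth muscle genes, the following 3 were chosen after their values were seen. *C3*, the central complement component, was at 71.3, 1143, 386, 2439, 1478 and 70.0 CPM in Controls 1 to 6, a 34.8-fold range. *Scd1*, a fatty acid desaturase strongly expressed in fat, was at 35.5, 333, 73.0, 767, 258 and 13.2 CPM, a 58.3-fold range that rests in part on Control 6, without which the lowest value was 35.5 CPM. Both were highest in Control 4 and lowest in Control 6, in nearly the order of the adipocyte and mesothelium lists. *Clu*, clusterin, had its own order and was highest in Controls 2 (251 CPM) and 3 (194 CPM). The part of those tissues in the levels of *C3* and *Scd1* was not tested.

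The V segments of antibodies differed between libraries in kind. Each clone of B or plasma cells carries a single rearranged V segment in its heavy chain and another in its light chain. The 115 heavy-chain segments (Ighv) summed to 855 to 1266 CPM, and the leading segment differed. *Ighv8-5* led Control 1 with 24.4% of the Ighv sum and Control 5 with 23.4%, *Ighv9-4* led Control 2 with 29.4%, *Ighv1-22* led Control 3 with 24.8%, *Ighv2-6* led Control 4 with 11.7% and *Ighv1-20* led Control 6 with 31.4%. *Ighv1-20* was at 0.826% or less in the other 5, and *Ighv1-22* at 1.46% or less. *Ighv2-6*, in contrast, still held 3.54% in Control 1 and 2.54% in Control 2. Between 3 and 7 segments held 50% of the Ighv sum. For the kappa light chain (Igkv, 100 segments), the sum ranged from 513 to 1164 CPM, and a different segment led in each of the 6 libraries, with 14.0 to 30.7% of it. V segments are alike in sequence, so that reads that fit 2 of them are missing from these counts.

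**Figure D5:**
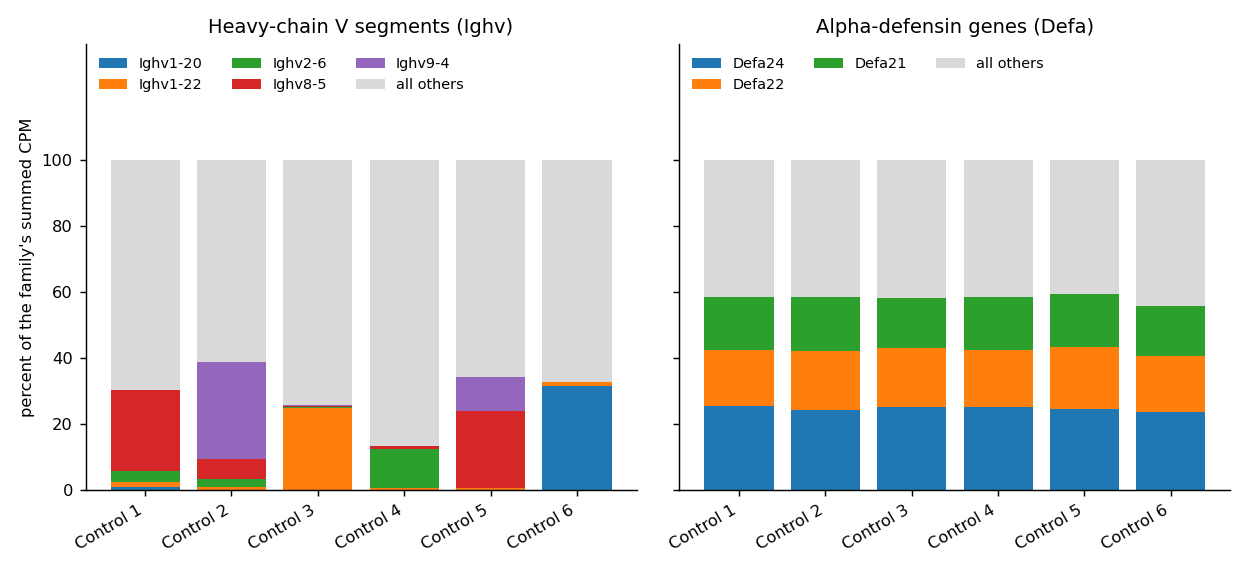
Share of each family's summed CPM, in percent, taken by the 5 heavy-chain V segments that led a library (left) and by the 3 leading alpha-defensin genes (right), with all other members in grey, for each control library. The coloured bands on the left differ from library to library, while those on the right are nearly level, with *Defa24* at 23.7 to 25.3%.

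The alpha-defensins, another family of near copies, showed the reverse. Their sum ranged from 11402 CPM in Control 5 to 16285 CPM in Control 1, but the proportions barely moved. *Defa24* held 23.7% of the family in Control 6 and 25.3% in Control 1, with the other 4 libraries between them. *Defa22* followed with 16.7 to 19.0% and *Defa21* with 15.1 to 16.2%, in this order in every library.

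Some clock genes were high or low in the same 3 libraries, a grouping that was read from their values and is given as a description. *Per1*, *Per2*, *Nr1d1*, *Cry1* and *Bhlhe41* did not follow it. *Dbp*, a transcription factor driven by the clock, was at 27.1, 25.2, 71.8, 95.5, 31.8 and 68.4 CPM in Controls 1 to 6, and *Per3* at 16.6, 16.3, 48.7, 45.9, 20.7 and 43.0 CPM. *Arntl*, which encodes the activator BMAL1, was at 36.9, 45.2, 20.3, 21.0, 39.3 and 18.4 CPM. Controls 3, 4 and 6 thus had the 3 highest values of *Dbp* and *Per3* and the 3 lowest of *Arntl*. *Npas2*, a partner of BMAL1, was likewise lowest in these 3 libraries, at 37.3 to 39.2 CPM against 65.3 to 69.9 CPM. None of the 12 clock genes reached an SD of 1, and their median SD was 0.52. The time of day of collection was not used here. CLOCK and BMAL1 bind the letters CACGTG, an E-box, and 5 of the 11 clock genes with a RefSeq window held them. Counted by window, the 11 genes held them in 6 of 14, beside 7.15% of all windows. The matches of *Ciart*, which held 3, and of *Per1* and *Tef* nearest the start site are shown with CACGTG in capitals, because *Ciart* (2.30 to 11.2 CPM) and *Tef* (62.3 to 140 CPM) had their 3 highest values in the same libraries as *Dbp* while *Per1* (51.2 to 87.3 CPM) did not.
Ciart, 116 before the start: catctagagtCACGTGttgccggtaa
Ciart, 58 before the start: cagggggaggCACGTGcagaaccgca
Ciart, 44 before the start: tgcagaaccgCACGTGtctgggaggg
Per1: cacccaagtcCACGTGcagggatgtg
Tef: gctgtggctcCACGTGctgcagctgg
These matches began 116, 58 and 44 bases before the start site of *Ciart*, 166 before that of *Per1* and 127 before that of *Tef*. In GRCm38.p6 the stretches of *Ciart* lie on the minus strand at chr3:95882329-95882354, chr3:95882271-95882296 and chr3:95882257-95882282, that of *Per1* on the plus strand at chr11:69098773-69098798 and that of *Tef* on the plus strand at chr15:81802536-81802561.

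Stress and induction genes showed single libraries that differed. The heat shock list was highest in Control 5 (258 CPM) and at 123 to 164 CPM elsewhere. *Hspa1b*, an inducible HSP70, was at 58.0 CPM in Control 5 and 14.4 to 25.7 CPM in the other 5, and *Hspa1a* at 19.7 against 4.38 to 6.82 CPM. *Fos*, an immediate early gene, was lowest in Control 1 (43.2 CPM) and at 83.8 to 132 CPM elsewhere. The immediate early list as a whole differed less, with sums of 487 CPM in Control 1 to 626 CPM in Control 2. Its member *Ier2* was highest in Control 1 (77.1 CPM) and at 56.1 to 67.7 CPM elsewhere. The interferon list was highest in Control 6, as were 5 of its 10 members, and there *Iigp1*, a GTPase directed at intracellular parasites, was at 35.9 CPM against 12.7 to 16.9 CPM and *Ifit1* at 38.1 against 15.1 to 24.5 CPM. Sterol synthesis genes had a sum of 1179 CPM in Control 1 and 1835 CPM in Control 3, and all 8 were highest in Control 3. Among the PPARα targets, *Pdk4*, a brake on glucose oxidation, ranged from 1.31 CPM in Control 6 to 16.1 CPM in Control 2, and from 3.34 CPM without Control 6. *Cyp4a10* was at no more than 0.195 CPM.

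Female and male control ileum were compared as the contrast that the labels offer within the group (3 against 3 libraries, edgeR quasi-likelihood test over 13233 genes). At an adjusted p under 0.05, 4 genes were higher in males (0.0302% of those tested) and 1 was higher in females (0.00756%), and 612 genes had an unadjusted p under 0.05. The 4 were the Y-linked *Eif2s3y*, *Kdm5d*, *Ddx3y* and *Uty*, relatives of X-linked genes of translation and chromatin. *Eif2s3y* was at 50.2, 50.4 and 45.6 CPM in Controls 2, 3 and 5 and at 0 counts in the 3 females. Against 3 counts over the female group, the 4 genes were at least 2020-fold (*Eif2s3y*), 1649-fold (*Kdm5d*), 1477-fold (*Ddx3y*) and 877-fold (*Uty*) higher in males, with edgeR adjusted p-values of 0.00067, 0.00067, 0.0029 and 0.0029. The gene higher in females was the kappa light-chain segment *Igkv4-91* (chr6:68768555-68769103), with 11.1, 12.4 and 11.3 CPM in Controls 1, 4 and 6 and 2.60, 2.42 and 2.41 CPM in Controls 2, 3 and 5. Its difference was 2.25 ± 0.14 (log2, SE; edgeR adjusted p = 0.0038), in all 3 females against all 3 males. *Igkv4-91* was not called without Control 2, without Control 3 or with a B cell score as a covariate, although its difference stayed at 2.28, 2.25 and 2.29 (log2). The score was the mean log2 CPM of the 3 B cell genes that passed the filter. Over all 18 libraries of the series the difference of *Igkv4-91* was 0.68 (log2) and was not called.

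*Xist*, the RNA of the inactive X chromosome, was at 367, 402 and 371 CPM in the females and at 6.59, 0 and 0.106 CPM in Controls 2, 3 and 5. The test did not call it (difference 7.43 ± 1.49, log2, SE; edgeR adjusted p = 0.99), with male values that ranged from 0 counts to 6.59 CPM. Of the X-linked genes that escape inactivation, *Kdm5c* was at 188 to 207 CPM in females and 132 to 144 CPM in males, *Eif2s3x* at 77.5 to 91.3 and 55.7 to 56.9 CPM, and *Kdm6a* at 43.3 to 53.0 and 26.5 to 30.9 CPM. The female and male values of these 3 genes did not overlap, as was true of 3.35% of all genes with the females above and 4.07% with the males above. Their differences were 0.56 ± 0.09, 0.61 ± 0.10 and 0.75 ± 0.13 (log2, SE), none called (edgeR adjusted p = 0.99 for each). Controls 2 and 3, which were high in B cell transcripts, were both male. Sex and the level of B cell transcripts can therefore not be told apart fully in this comparison. With Control 5 left out, the males were these 2 libraries alone, and 99 genes were called higher in males.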

How the data were processed

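RNA from whole-thickness ileum was poly-A selected and sequenced as paired reads, and per the labels the authors aligned them with STAR to the GRCm38 primary assembly (Ensembl release 101) and counted reads that fit 1 gene with featureCounts. The deposited count, CPM and FPKM values of 6 libraries were used. The CPM deposited by the authors are counts scaled to a common library total, and the FPKM deposited are CPM per kilobase of gene length. The moderated log2 CPM deposited by the authors entered 1 alternative only. The members and gene lists were chosen with earlier results of these data known.

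Variation was the SD of log2 CPM (prior count 2) for genes above 3 CPM in at least 3 libraries. Named genes were the 25 of highest mean CPM, the 25 protein-coding genes of highest mean FPKM, the 30 most and 10 least variable (the latter of at least 100 CPM), members of 42 marker lists, genes called by sex and *Ppara*. Females and males were compared with edgeR 4.0.16 (TMM, quasi-likelihood, Benjamini-Hochberg adjustment). DESeq2 1.42.0, other filters and leaving out each library were alternatives. On simulated counts (13233 genes), edgeR found 53 of 100 genes changed 2-fold and 100 of 100 changed 4-fold, with 10 false calls. The simulation gave every gene the same dispersion, whereas the spread of the real genes differed widely. These rates therefore do not hold for genes of wide spread, such as *Xist*. The counts of each library bound the counting error only. Some genes of the lists are not reported here.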

Additional observations from a re-analysis of the deposited data

Results flagged for a closer look

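Of 108 values examined over the 6 libraries, 12 had 1 library far from the other 5 by Dixon's 95% limit. Chance passes it in about 1 of 20 groups, but that rate does not apply to the 10 single genes here, which were all among the 30 most variable genes of these same libraries. Control 4 was that library for 9 of them: the summed adipocyte list (568 CPM, others at most 204), *Cfd* (412 CPM, others at most 91.7), *Car3* (344 CPM), *Adipoq* (56.6 CPM), *Retn* (16.4 CPM), *Plin1* (65.1 CPM) and the V segments *Ighv11-2* (61.6 CPM), *Igkv14-126* (121 CPM) and *Ighv14-4* (74.1 CPM). *Car3*, *Adipoq*, *Retn* and *Plin1* are members of the adipocyte list and do not count as separate results. Single libraries also led *Ighv14-1* (85.7 CPM in Control 2, others at most 12.0), *Igkv8-28* (196 CPM in Control 1, others at most 14.5) and the heat shock list (258 CPM in Control 5, others at most 164).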

How the results depend on the processing

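The median number of genes holding 50% of the counts was 847.5, and 263 with summed FPKM. Of the 25 most abundant genes by CPM, 15 remained by FPKM. The 387 variable genes became 104 with more than 3 CPM required in all 6 libraries, 3311 with no CPM filter, 227 without Controls 4 and 6 (chosen after seeing the data) and 212 to 413 with 1 library left out, lowest without Control 6. Of the 30 most variable genes, 0 remained with more than 3 CPM required in all 6 libraries, which removes genes near 0 in some library, and 11 (without Control 2) to 25 with 1 library left out. Component 1 held 37.9% of the variance with genes scaled, and 43.5 to 63.0% with 1 library left out.

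Between females and males, DESeq2 called 9 genes higher in females and 40 higher in males. Genes higher in females numbered 0 among protein-coding genes, 0 with the B cell covariate and 6 over all 18 libraries. Genes higher in males numbered 0 among autosomal genes. They also numbered 0 without Controls 2 and 3, which leaves 1 male, assumed to vary like the females, while the Y-linked differences stayed near their size (*Eif2s3y* -13.91 and *Kdm5d* -13.62, log2 female minus male). With 1 library left out, 0 to 2 genes were higher in females and 2 to 99 in males, with 99 without Control 5. The cause was not tested. The adipocyte list spanned 8.04-fold without Control 4 in place of 22.4, and the mesothelium list 9.25-fold in place of 16.1. No paired analysis was possible because female and male controls share no replicate number. Depth limits genes under about 0.0779 CPM.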

Other observations

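A few genes were highest in Control 6, the library with the lowest smooth muscle and nerve transcripts and the highest *Reg3b* and *Reg3g*. They were chosen after their values were seen, from the genes, immunoglobulin genes left out, with the largest positive loadings on component 1. *Saa1*, an acute phase protein that the gut epithelium also makes, was at 23.8, 15.2, 37.3, 13.4, 42.8 and 124 CPM in Controls 1 to 6. *Fut2*, the enzyme that adds fucose to the epithelial surface, was at 24.4 CPM in Control 6 and 3.47 to 6.95 CPM in the other 5. *Igtp*, an interferon-induced GTPase, was at 52.9 CPM against 12.0 to 21.7 CPM. *Plb1*, a brush border phospholipase, was at 28.6 CPM against 1.41 to 7.17 CPM. The part of the low smooth muscle and nerve levels of Control 6 in these values was not tested.

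The lambda light chain differed between libraries in kind and in sum. The 3 Iglv segments summed to 88.8 CPM in Control 1 and 480 CPM in Control 2. *Iglv1* held 93.7% of the sum in Control 3 and 33.0% in Control 5, where *Iglv2* held 66.2%.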
